A study of Mus musculus with 9 samples.

Results

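The 7 genes described here were the 5 expressed members of the CCN family, Ctgf, Cyr61, Nov, Wisp1 and Wisp2, together with Ankrd1 and Amotl2. They were chosen by name and were all found, once each, among the 40548 genes of the deposited RNA-seq tables. The libraries came from calvarial cells of C57BL/6 mice (C57BL/6J in the study's methods) aged 2 to 3 days, with no transgene or deletion in any group. Cells grown to confluence made up the day 0 group, and cells kept in mineralization medium (ascorbic acid plus β-glycerol phosphate) made up the day 4 and day 7 groups, each with 3 libraries. Mineralized cells were taken off the dish with collagenase I before trypsin and day 0 cells with trypsin alone. In the study's methods the collagenase step was longer for day 7 than for day 4 cells. The stage of differentiation and the way of dissociation therefore cannot be told apart. The study calls the 3 libraries of a stage biological replicates, and the sources do not say whether these were separate animals or cultures, so the p-values measure only the spread between these libraries.

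CCN proteins are secreted, matricellular proteins that bind integrins, LRP co-receptors and heparan sulfate proteoglycans, and most of them end in a cysteine knot domain that WISP2 lacks. CTGF (now CCN2) and CYR61 (CCN1) are the best known transcriptional targets of YAP and TAZ, the co-activators that the Hippo kinases hold in the cytoplasm and that bind DNA through TEAD factors. Ankrd1, which encodes a nuclear and sarcomeric ankyrin-repeat protein, and Amotl2, which encodes an angiomotin that holds YAP at cell junctions, are widely used readouts of the same pathway. In bone, CYR61, CTGF and WISP1 are known as promoters of osteoblast maturation and NOV (CCN3) as an inhibitor of it.

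TEAD factors bind the letters GGAATG, read as CATTCC on the other strand. Promoter windows of 300 bases, from 250 bases before to 50 bases after the transcript start, were given by RefSeq (GRCm38.p6) for 3 of the 7 genes, and each held these letters. They are shown because they hold these letters at genes used as readouts of the pathway, of which Ankrd1 rose, Amotl2 fell and Cyr61 did not pass the test between day 0 and day 7. The sequences are written in the direction of transcription (the coding strand), with the TEAD letters in capitals. The windows are chr3:145649936-145650235 (minus strand) for Cyr61, chr19:36119795-36120094 (minus strand) for Ankrd1 and chr9:102717554-102717853 (plus strand) for Amotl2. By the gene positions given below, the Ankrd1 and Amotl2 windows lie inside the gene, which there begins upstream of the RefSeq start used here.
Cyr61: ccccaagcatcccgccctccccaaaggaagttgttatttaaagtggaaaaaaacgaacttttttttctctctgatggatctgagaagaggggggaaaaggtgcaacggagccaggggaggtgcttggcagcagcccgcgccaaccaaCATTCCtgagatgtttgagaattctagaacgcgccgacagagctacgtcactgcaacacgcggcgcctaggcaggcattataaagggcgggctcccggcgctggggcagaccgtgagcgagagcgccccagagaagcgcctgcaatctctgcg
Ankrd1: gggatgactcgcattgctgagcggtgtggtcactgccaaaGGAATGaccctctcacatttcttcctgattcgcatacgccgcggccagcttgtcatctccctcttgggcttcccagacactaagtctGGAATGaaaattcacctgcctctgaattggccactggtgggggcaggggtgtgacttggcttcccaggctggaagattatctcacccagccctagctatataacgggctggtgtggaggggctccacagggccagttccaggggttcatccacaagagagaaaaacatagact
Amotl2: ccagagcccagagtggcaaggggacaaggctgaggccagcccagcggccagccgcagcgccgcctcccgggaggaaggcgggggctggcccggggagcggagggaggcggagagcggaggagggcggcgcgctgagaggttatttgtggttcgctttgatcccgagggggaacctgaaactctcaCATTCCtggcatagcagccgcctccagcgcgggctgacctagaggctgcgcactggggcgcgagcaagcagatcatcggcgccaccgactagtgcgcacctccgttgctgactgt

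The Cyr61 window held 1 match, whose first base lay 103 bases before the start, on the strand opposite to the one shown. The Ankrd1 window held 2 matches on the strand shown, at 210 and 123 bases before the start, and the Amotl2 window held 1 on the opposite strand, 65 bases before it. Of 32851 mouse promoter windows of the same length, 14.7% held the TEAD letters on either strand at least once and 1.36% held them 2 or more times. Neither the AP-1 letters TGANTCA, found in 7.81% of all windows, nor a CArG box, the site of the serum response factor, found in 1.63%, occurred in the 3 windows. These are matches of letters only. Among the 16 other YAP and TAZ target genes listed here, 10 had a window and 2 of those held the TEAD letters.

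Sequencing yielded between 7741204 and 14013219 gene-assigned reads per library at day 0, 32820610 to 37306090 at day 4 and 10675858 to 15622755 at day 7. Day 0 and day 7 were deposited in the same tables and could be tested against each other, whereas day 4 was deposited in separate, deeper tables, so its levels are given beside the others without a test. Levels are in RPKM, reads scaled by the length of the gene model and by the depth of the library, which allows genes of different length to be compared. The osteoblast markers went with the labels: 9 of 10 osteoblast markers were higher at day 7, beside 12.6% of all genes tested. Ibsp, encoding bone sialoprotein, rose from 3.82 ± 0.644 to 2807.5 ± 442.4 RPKM (SD, n = 3).

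The 7 genes did not move together. Between day 0 and day 7, Ankrd1 rose, Nov, Wisp2, Ctgf and Amotl2 fell, and neither Cyr61 nor Wisp1 passed the threshold of an adjusted p of 0.05 (limma on log2 of CPM + 0.5, where CPM is the read count scaled to library depth, Benjamini-Hochberg over 12712 genes). All 7 had passed the filter on low values. Over all genes tested, 31.2% were called, 12.6% as higher and 18.6% as lower, and the 7 genes are read against those shares. The 3 libraries of day 7 lay wholly above those of day 0 for 1 gene (Ankrd1) and wholly below for 4 (Nov, Wisp2, Wisp1, Amotl2), against 16.9% and 25.4% of all genes. In bulk RNA, fewer cells of a type and less RNA per cell cannot be told apart.

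**Figure D1:**
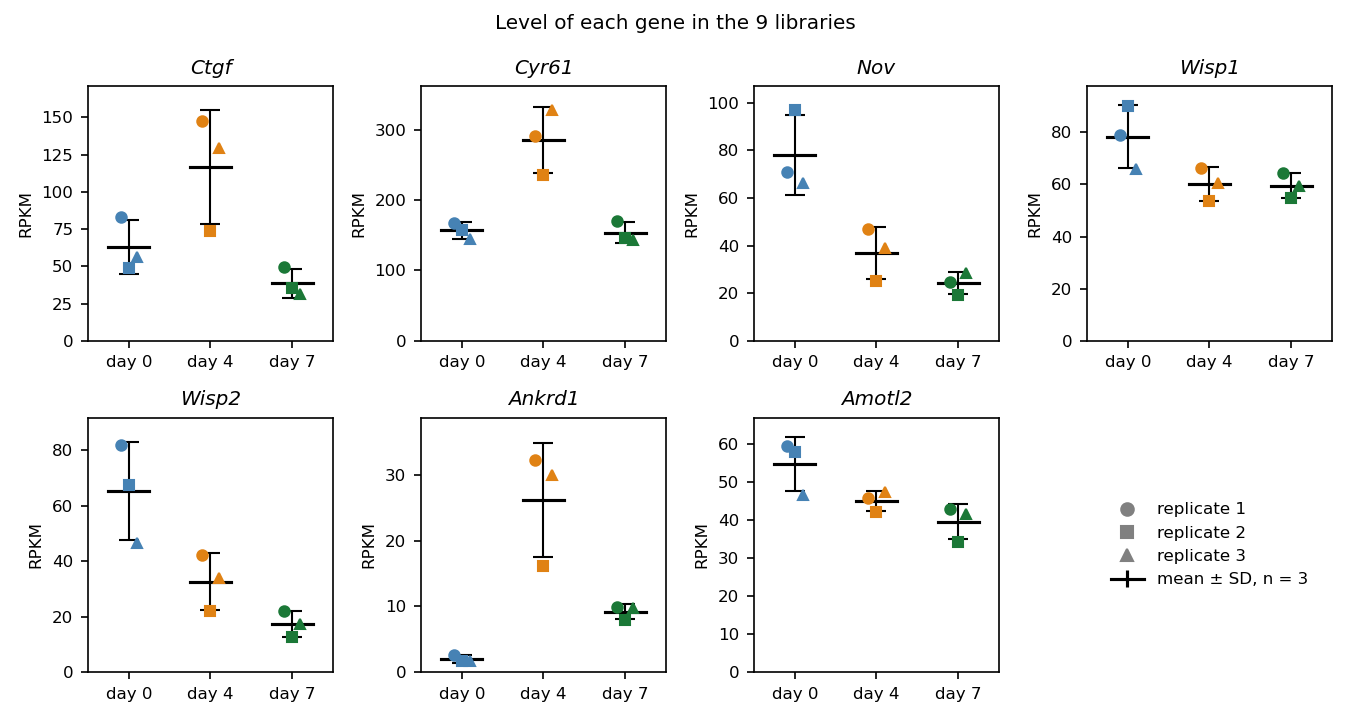
RPKM of each gene (vertical axes, all from 0) in the 3 libraries of day 0, day 4 and day 7 (horizontal axes), with the mean and SD as black lines. Ctgf, Cyr61 and Ankrd1 had their highest mean at day 4, the Nov and Wisp2 means were lower at each step, and the Wisp1 libraries of days 4 and 7 overlapped.

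Cyr61 (Ccn1, ENSMUSG00000028195) lies on chr3:145646976-145649981 of GRCm38, minus strand. It was the highest of the 7 genes in every library. Its level was 168, 158 and 145 RPKM at day 0, 291, 235 and 328 at day 4, and 170.5, 147 and 143 at day 7. All 3 day 4 libraries lay above all others, and day 0 and day 7 overlapped. The day 4 mean (285 ± 46.8 RPKM, SD, n = 3) was 1.82 times that of day 0 (157 ± 11.7) and 1.86 times that of day 7 (153 ± 14.8). The day 7 against day 0 change was -0.03 on the log2 scale (SE 0.15, limma adjusted p = 0.897), and its direction depended on the scaling and on single libraries, turning positive without day 0 replicate 1 (0.02) or day 7 replicate 3 (0.01).

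Ctgf (Ccn2, ENSMUSG00000019997, chr10:24595442-24598683, plus strand) had 83.5, 49.0 and 56.6 RPKM at day 0, 148, 74.1 and 129 at day 4, and 49.8, 35.4 and 31.3 at day 7. The day 4 libraries lay above those of day 7, while replicate 2 of day 4 fell within the range of day 0. The day 7 libraries ranged from below those of day 0 to within them. The means were 63.0 ± 18.2, 117 ± 38.2 and 38.8 ± 9.72 RPKM (SD, n = 3), so that day 4 stood 3.01 times above day 7. Ctgf was lower at day 7 than at day 0 by a log2 change of -0.69 (SE 0.17, limma adjusted p = 0.00167). This call was lost with DESeq2 (log2 change -0.59, adjusted p = 0.0854) and with limma's sample quality weights (-0.38, adjusted p = 0.142). On RPKM alone the exact 2-sided permutation test gave p = 0.2, and 3 libraries against 3 cannot give less than 0.1. An antisense transcript, Gm15270, overlaps the gene. It was at 0.202, 0.305 and 0.262 RPKM in the means of days 0, 4 and 7, and whether strand was used in counting is not given in the sources used here.

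Ankrd1 (ENSMUSG00000024803, chr19:36111961-36120099, minus strand) was the lowest of the 7 genes at day 0. Its level was 2.71, 1.71 and 1.76 RPKM at day 0, from 67, 36 and 24 reads. It was 32.2, 16.2 and 30.0 RPKM at day 4 and 9.99, 7.90 and 9.82 at day 7. The stages did not overlap at any step, with day 4 the highest and day 0 the lowest. The day 4 mean of 26.1 ± 8.68 RPKM (SD, n = 3) was 12.7 times that of day 0 (2.06 ± 0.565) and 2.83 times that of day 7 (9.24 ± 1.16). The day 7 level was 4.49 times that of day 0, with a log2 change of 2.04 (SE 0.21, limma adjusted p = 2.08e-11), and it was called in all 18 alternatives, from 1.92 to 2.44.

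Both Cyr61 and Ankrd1, but not Ctgf, had day 4 libraries wholly above those of day 0 and day 7, as did 8.07% of 12782 genes measured at all stages. Day 4 replicate 2 was the lowest day 4 library for all 7 genes, as it was for 55.7% of genes. Without it, an alternative chosen after seeing the data, the remaining day 4 libraries of Ctgf also lay above both other stages, and the share over all genes became 12.0%.

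Nov (Ccn3, ENSMUSG00000037362, chr15:54745702-54754039, plus strand) had 70.9, 97.1 and 66.2 RPKM at day 0, 46.9, 25.3 and 39.1 at day 4, and 24.7, 19.4 and 28.7 at day 7. Every day 0 library was above every later one, and days 4 and 7 overlapped through replicate 2 of day 4. The means were 78.0 ± 16.7, 37.1 ± 11.0 and 24.3 ± 4.62 RPKM (SD, n = 3). The day 0 level was thus 3.21 times that of day 7, a log2 change of -1.68 (SE 0.16, limma adjusted p = 8.57e-12), called in all 18 alternatives. Of the 50-base stretches of its transcripts, 1.1% also occur in another gene.

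Wisp2 (Ccn5, ENSMUSG00000027656, chr2:163820861-163833146, plus strand) had 82.0, 67.5 and 46.8 RPKM at day 0, 42.3, 22.0 and 33.9 at day 4, and 22.1, 12.9 and 17.3 at day 7. Day 0 lay above the later stages, and a day 4 library at 22.0 RPKM met the highest day 7 library. From day 0 to day 7 its mean went from 65.4 ± 17.7 through 32.8 ± 10.2 to 17.4 ± 4.59 RPKM (SD, n = 3), a 3.76-fold difference between the ends. Its log2 change of -1.89 (SE 0.18, limma adjusted p = 3.36e-12) was called in all 18 alternatives.

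Nov and Wisp2 were the genes whose day 4 libraries lay wholly below day 0, which held for 21.9% of all genes, and Cyr61 and Ankrd1 those wholly above, which held for 21.6%. At day 7, the libraries of Ctgf, Cyr61 and Ankrd1 lay wholly below those of day 4 and no gene lay wholly above, against 25.0% and 13.6% of all genes. None of the 7 genes was lower without overlap at both steps, a course that 4.36% of all genes took. Without day 4 replicate 2, Nov, Wisp2 and Amotl2 joined those whose day 7 libraries lay below day 4, and the share over all genes became 35.9%. Without day 4 replicate 1, Wisp1 joined those below day 0 at day 4 (25.3% of all genes), and without replicate 3, Amotl2 did (24.0%).

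Wisp1 (Ccn4, ENSMUSG00000005124, chr15:66891320-66923201, plus strand), a WNT-induced member of the family, had 79.0, 89.9 and 65.7 RPKM at day 0, 66.2, 53.5 and 60.7 at day 4, and 64.4, 54.7 and 59.5 at day 7. The day 7 libraries all lay below those of day 0 (65.7 RPKM in the lowest day 0 library, 64.4 in the highest of day 7), and day 4 overlapped both. The means were 78.2 ± 12.1, 60.1 ± 6.34 and 59.5 ± 4.88 RPKM (SD, n = 3). Its log2 change from day 0 to day 7 was -0.38 (SE 0.16, limma adjusted p = 0.0581), which did not pass the threshold. It passed in 7 of 18 alternatives, among them the scalings by median of ratios and TMM (-0.28 each) and the fit without day 0 replicate 3 (-0.50).

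Amotl2 (ENSMUSG00000032531, chr9:102716672-102733418, plus strand), a negative regulator of YAP and itself a YAP target, had 59.5, 57.9 and 46.6 RPKM at day 0, 45.7, 42.2 and 47.3 at day 4, and 42.8, 34.3 and 41.5 at day 7. It varied least at day 4, where the highest library was 1.12 times the lowest. Day 7 lay below day 0, and day 4 overlapped both. Its mean went from 54.6 ± 7.05 to 45.1 ± 2.61 and 39.5 ± 4.54 RPKM (SD, n = 3), with a log2 change from day 0 to day 7 of -0.46 (SE 0.16, limma adjusted p = 0.0195). The call was lost on leaving out day 0 replicate 1 (-0.40), day 0 replicate 2 (-0.42), day 7 replicate 2 (-0.37) or day 7 replicate 3 (-0.50), with adjusted p values up to 0.165. Of its 50-base stretches, 0.369% also occur in another gene.

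The sixth CCN gene, Wisp3 (Ccn6, chr10:39150970-39163794, minus strand), was close to undetected, with 0 to 0.177 RPKM per library, and was not tested.

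The median log2 change of all genes was -0.11, and -0.01 under median-of-ratios scaling. Relative to that median, the day 7 against day 0 changes were -1.78 for Wisp2, -1.56 for Nov, -0.58 for Ctgf, -0.35 for Amotl2, -0.27 for Wisp1, 0.08 for Cyr61 and 2.16 for Ankrd1. Of all calls, 40.3% were higher at day 7, and 52.1% under median-of-ratios scaling.

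Cyr61 took a larger part of the CCN transcripts in every library of days 4 and 7 than at day 0. Summed over the 5 CCN genes, RPKM was 483, 461 and 380 at day 0, 594, 410.2 and 591 at day 4, and 331, 269 and 280 at day 7 (means 441 ± 54.4, 532 ± 105 and 293 ± 33.4, SD, n = 3). Day 7 lay below both other stages, and days 0 and 4 overlapped. Of that sum, Cyr61 made up 34.7%, 34.2% and 38.1% at day 0, 49.0%, 57.4% and 55.5% at day 4, and 51.4%, 54.5% and 51.2% at day 7. Its share was higher in every later library than in any day 0 library, by 16.7 percentage points at day 7 (exact 2-sided permutation p = 0.1, the smallest that 3 against 3 can give).

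The Nov share went from 17.7% ± 3.20 at day 0 to 6.89% ± 0.902 at day 4 and 8.31% ± 1.67 at day 7, and the Wisp2 share from 14.6% ± 2.32 to 6.08% ± 0.93 and 5.88% ± 0.967 (SD, n = 3). For both, every later library lay below every day 0 library (exact permutation p = 0.1 for day 7 against day 0). The Ctgf share was highest at day 4, at 21.6% ± 3.39 against 14.3% ± 3.38 at day 0 and 13.1% ± 1.92 at day 7, with its day 4 libraries above all others. The Wisp1 share was lowest at day 4 (11.5% ± 1.42) and was 17.7% ± 1.62 at day 0 and 20.3% ± 0.902 at day 7, which overlapped (exact permutation p = 0.2). Shares of 1 sum are not independent of each other.

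**Figure D2:**
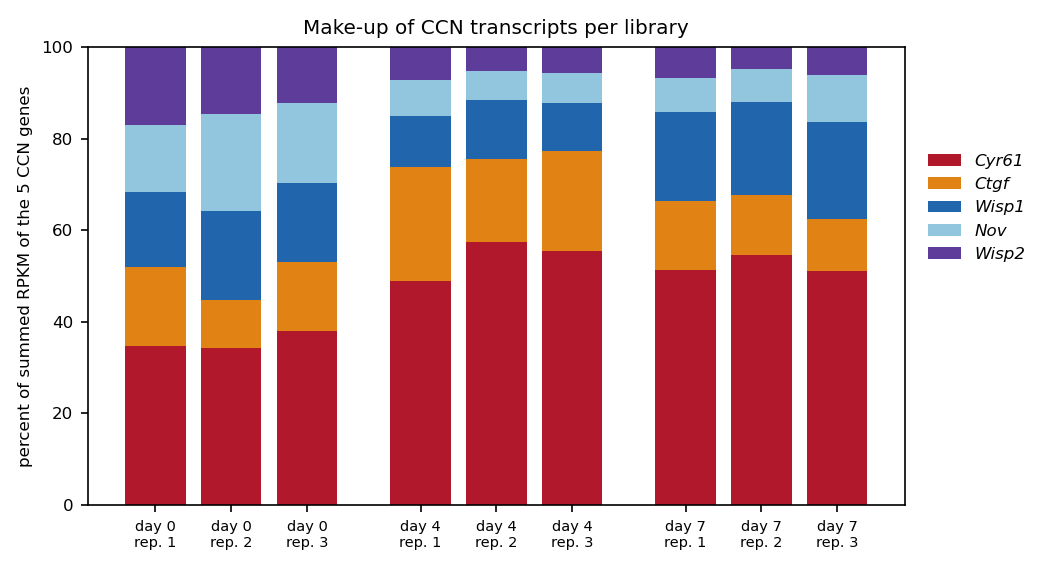
Stacked bars give, for each of the 9 libraries (horizontal axis), the percent of the summed RPKM of the 5 CCN genes that each gene took (vertical axis, 0 to 100). Cyr61, at the base, took 34.2% to 38.1% at day 0 and 49.0% to 57.4% in the later libraries, and Nov and Wisp2, at the top, narrowed.

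Ranked by level per length, Cyr61 stood above the other genes without overlap at every stage. At day 0, Wisp1, Nov, Wisp2, Ctgf and Amotl2 followed at means of 78.2 to 54.6 RPKM, with each neighbour in the order overlapping the next, and Ankrd1 stood below all of them. At day 4, Ctgf, Wisp1 and Amotl2 followed Cyr61 without overlap between neighbours, Amotl2 overlapped Nov, and Nov, Wisp2 and Ankrd1 overlapped from 46.9 down to 16.2 RPKM. At day 7, Wisp1 was in the second place, above Amotl2 and Ctgf, which overlapped. Nov and Wisp2 came next and overlapped, and Ankrd1 was again the lowest, without overlap. Ctgf thus had the lowest mean of the 5 CCN genes at day 0 and the highest after Cyr61 at day 4.

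Across the 9 libraries, which share their stage and depth in threes, Pearson correlations of log2(CPM + 0.5) between the genes were highest at 0.95 for Nov with Wisp2, 0.95 for Wisp2 with Amotl2 and 0.90 for Nov with Amotl2. Ctgf, although also lower at day 7, gave 0.29 with Nov, 0.48 with Wisp2 and 0.38 with Amotl2, against 0.88 with Cyr61. Cyr61 and Ankrd1 gave 0.78, and Ctgf and Ankrd1 0.49. The lowest value was -0.62, for Wisp1 with Ankrd1, and Nov with Cyr61 gave -0.06. These are descriptions over few points. Spread within a stage differed among the genes as well: at day 4 the highest library was 1.99 times the lowest for Ctgf and for Ankrd1, 1.92 times for Wisp2, 1.86 times for Nov, 1.39 times for Cyr61 and 1.24 times for Wisp1.

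Among 9100 genes with a mean of at least 10 CPM, those whose course over the 9 libraries was most like that of Ankrd1 were Pxylp1 and Atp2b4, a plasma membrane calcium pump (r = 0.987 each), and Col7a1, a collagen of anchoring fibrils (0.985). Col7a1 had mean levels of 2.31, 12.9 and 6.57 RPKM at days 0, 4 and 7. Most like Cyr61 were Il4ra, the interleukin-4 receptor (0.986), Plat, tissue plasminogen activator (0.982), and Lclat1 (0.978). Plat was at 22.5, 62.1 and 17.3 RPKM, and so, like Cyr61, had its highest mean at day 4. Most like Ctgf were Mmp2, a gelatinase (0.967), and Zswim6 (0.961). Mmp2 was at 327, 381 and 284 RPKM.

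The nearest to Nov were Parva (0.987), Slx4 (0.985) and Tgfbr2 (0.984), the type II TGF-β receptor, whose means were 116.5, 59.5 and 48.7 RPKM. The nearest to Wisp2 were 5031439G07Rik, Nhs and Slc30a1 (0.991 each). Zfp746 and Dnm1l (0.986 each) and Kpna3 (0.984) were nearest to Wisp1, and Cdk2 (0.995), Son (0.994) and Lmna (0.992), which encodes the nuclear lamins A and C, to Amotl2.

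Neither co-activator passed the threshold between day 0 and day 7 in the main limma fit. Yap1 had 18.2, 19.6 and 15.4 RPKM at day 0, 16.1, 14.1 and 16.3 at day 4, and 15.8, 13.8 and 15.2 at day 7, and the stages overlapped (log2 change -0.24, SE 0.15, limma adjusted p = 0.241). Wwtr1, which encodes TAZ, had 33.3, 33.3 and 29.9 RPKM at day 0, 47.5, 43.9 and 45.1 at day 4, and 34.4, 35.1 and 34.5 at day 7. Its day 4 libraries lay above all others, like those of Cyr61 and Ankrd1. The day 7 libraries of Wwtr1 lay wholly above those of day 0, as did 16.9% of all genes. The lowest of day 7 had 34.4 RPKM and the highest of day 0 had 33.3. Its log2 change from day 0 to day 7 was 0.11 (SE 0.15, limma adjusted p = 0.628).

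Of the 4 TEAD factors, the DNA-binding partners, 2 fell. Tead1 fell from 7.75 ± 0.996 to 4.29 ± 0.431 RPKM (SD, n = 3), a log2 change of -0.84 (SE 0.16, limma adjusted p = 3.02e-05), and Tead2 from 20.5 ± 4.31 to 10.5 ± 0.982, a change of -0.94 (SE 0.16, limma adjusted p = 9.47e-06). For both, every day 4 library was already below day 0. Tead3 (7.08 RPKM at day 0, 5.96 at day 7, limma adjusted p = 0.285) and Tead4 (1.10 and 1.56 RPKM, adjusted p = 0.104) did not pass the threshold, although Tead4 passed it under 5 other scalings or tools (log2 changes of 0.55 to 0.70). The TEAD cofactor Vgll3 fell from 23.8 ± 2.31 to 11.8 ± 0.865 RPKM (-1.01, SE 0.16, limma adjusted p = 1.16e-06). In all, 0 of these 8 factors and cofactors were called higher and 3 lower by limma (all genes 12.6% and 18.6%). An unadjusted p under 0.05 was reached by 1 that was higher and 3 that were lower, beside 1929 and 3175 of all 12712 genes. Their median log2 change was -0.24, beside -0.11 for all genes. Without day 0 replicate 3, 1 was called higher and 5 lower, in a fit that called 1603 of all 12712 genes higher and 4696 lower. With limma's sample quality weights, 3 of the 8 were called higher and 3 lower, beside 3148 and 2972 of all 12712 genes.

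Of 23 Hippo kinases and regulators tested, 9 fell and 0 rose by limma, beside 18.6% and 12.6% of all genes. At an unadjusted p under 0.05, 10 fell and 0 rose, beside 3175 and 1929 of all 12712 genes. The largest falls were those of Amot, the angiomotin related to Amotl2, from 21.4 ± 1.57 to 8.17 ± 0.637 RPKM (-1.38, SE 0.15, limma adjusted p = 2.55e-10), and of the protocadherin Fat4, from 8.78 ± 0.409 to 3.96 ± 0.858 RPKM (-1.16, SE 0.16, limma adjusted p = 5.94e-08). Amot libraries lay lower at both steps with no overlap. The median of the list was -0.21. None of the kinases Stk3, Stk4, Lats1 and Lats2 passed the threshold (log2 changes of -0.07, -0.35, -0.21 and -0.14). Of the other kinases in the list, Taok1 (-0.49, limma adjusted p = 0.0133) and Taok2 (-0.48, limma adjusted p = 0.0157) fell. Taok3 (0.14) and Map4k4 (0.18) did not pass. The number of falls was 5 without day 0 replicate 1 or without day 7 replicate 2, fits in which 1631 and 1548 of all 12712 genes fell.

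Among 16 other YAP and TAZ target genes, 3 rose, 5 fell and 8 did not pass, where 12.6% of all genes rose and 18.6% fell. Nt5e, the ecto-nucleotidase CD73, rose most, from 2.17 ± 0.777 through 9.48 ± 0.872 to 11.8 ± 0.318 RPKM (SD, n = 3) with no overlap at either step (log2 change 2.48, SE 0.18, limma adjusted p = 8.87e-16). Unlike those of Ankrd1, its day 7 libraries lay above those of day 4. Igfbp3, a binding protein for insulin-like growth factors, had 17.4, 25.3 and 11.9 RPKM at day 0, 55.3, 57.1 and 48.5 at day 4, and 35.4, 24.9 and 30.0 at day 7. It peaked at day 4 without overlap, as Cyr61 and Ankrd1 did, and its change to day 7 was 0.77 (SE 0.18, limma adjusted p = 7.77e-04). Ccdc80 rose by 0.74 (SE 0.17, limma adjusted p = 6.48e-04).

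The 5 that fell were Myof (-0.68, limma adjusted p = 3.51e-04), Fjx1 (-0.59, 0.0113), Rbms3 (-0.57, 0.00301), Crim1 (-0.56, 0.00457) and the receptor tyrosine kinase Axl (-0.52, 0.0071). The call was lost for Axl without day 7 replicate 1 (-0.41) and for Fjx1 without day 0 replicate 1 (-0.51) or day 7 replicate 2 (-0.45). Without day 0 replicate 3, 8 of the 16 genes were called lower, as were 4696 of all 12712 genes. The list's median was -0.28, and 4 of its 16 genes had day 4 libraries above both other stages, beside 2 of the 7 genes described here and 8.07% of all genes.

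**Figure D3:**
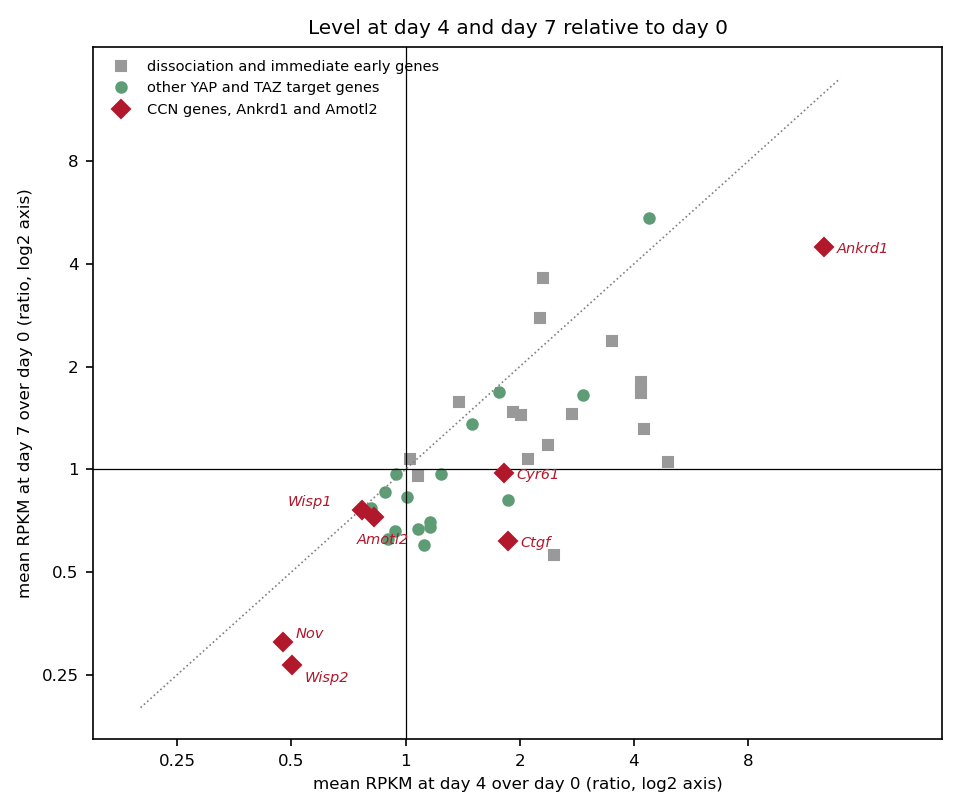
Each point is a gene, with its mean RPKM at day 4 over day 0 on the horizontal axis and at day 7 over day 0 on the vertical axis (both log2 axes; solid lines mark a ratio of 1, the dotted line equal ratios). Ankrd1 lies farthest right, at 12.7 and 4.49, Cyr61 and Ctgf lie right of 1 and below the dotted line, and Nov and Wisp2 lie lowest.

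CCN proteins signal through integrins and LRP proteins, and also bind heparan sulfate proteoglycans. Of 11 receptor genes of these kinds, among them a syndecan proteoglycan, 2 rose, 4 fell and 5 did not pass, again beside 12.6% and 18.6% of all genes. Itgav, the αv chain shared by several CCN-binding integrins, fell from 51.6 ± 6.16 through 35.5 ± 4.16 to 26.4 ± 1.66 RPKM (SD, n = 3, log2 change -0.96, SE 0.16, limma adjusted p = 2.45e-06). Lrp6, the WNT co-receptor, fell from 27.2 ± 2.73 to 18.1 ± 1.20 RPKM (-0.58, SE 0.15, limma adjusted p = 0.00233). Itga6 rose from 1.46 ± 0.344 to 3.71 ± 1.38 RPKM (1.27, SE 0.20, limma adjusted p = 1.34e-06). Itgam, a myeloid integrin, rose from 0.306 ± 0.111 to 0.619 ± 0.219 RPKM (0.85, SE 0.26, limma adjusted p = 0.0079), a call lost without day 7 replicate 1 (0.61). Leaving out day 7 replicate 2 or 3 left 2 falls, with 1548 and 1670 of all 12712 genes lower.

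Genes of the serum response factor and its MRTF co-activators, which answer to actin as YAP does, had a median of 0.04, with 4 of 15 higher, 1 lower and 10 not past (all genes 12.6% and 18.6%). The smooth muscle calponin Cnn1 rose from 18.4 ± 3.47 through 45.0 ± 1.58 to 35.3 ± 1.10 RPKM (0.94, SE 0.16, limma adjusted p = 5.72e-06), with its day 4 libraries above the others, as for Ankrd1. Myl9, a myosin light chain, rose by 0.63 (SE 0.15, limma adjusted p = 0.001). Flna, filamin A, fell (-0.55, SE 0.18, limma adjusted p = 0.0173), a call lost without day 0 replicate 1 (-0.49) or without any 1 day 7 library (-0.57 to -0.53). Without day 7 replicate 2 or 3, 2 of the rises were called, with 1480 and 1296 of all 12712 genes higher.

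**Figure D4:**
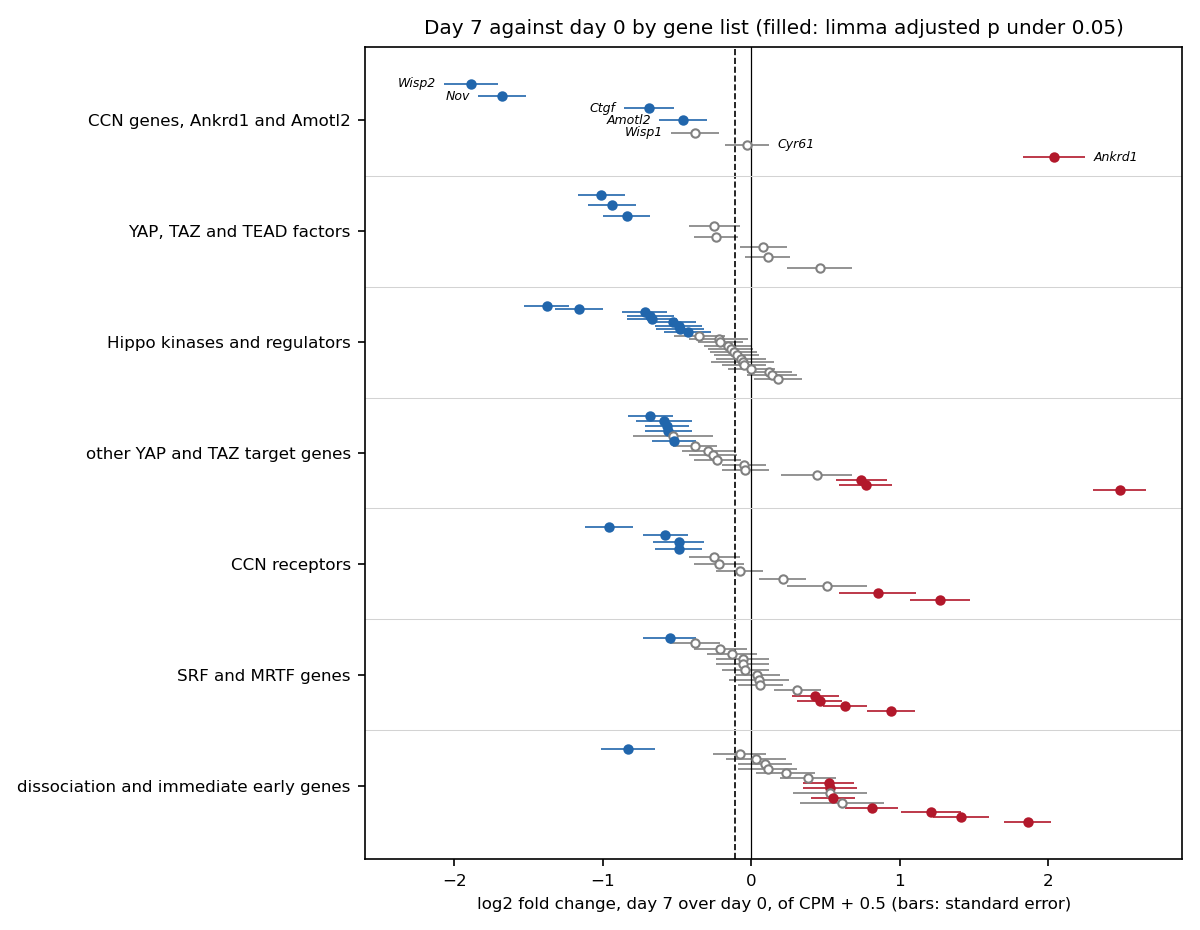
Log2 fold change of CPM + 0.5 from day 0 to day 7 (horizontal axis, bars are standard errors) for each gene of 7 lists (vertical axis), filled where the limma adjusted p was under 0.05, with the dashed line at the median of all genes. The CCN genes, Ankrd1 and Amotl2 span -1.89 (Wisp2) to 2.04 (Ankrd1), Nt5e lies farthest right at 2.48, and no Hippo regulator was called higher.

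Ctgf, Cyr61 and Ankrd1 are also known to respond within hours to serum, strain and cell detachment. The 16 dissociation and immediate early genes listed here had summed levels of 148 to 177 RPKM at day 0, 371 to 431 at day 4 and 259 to 337 at day 7, with no overlap. Of these 16, 13 had day 4 libraries wholly above day 0 and 0 wholly below, and 9 had them above both other stages. Over all genes these shares were 21.6%, 21.9% and 8.07%. Fos was at 4.85 ± 0.237, 23.9 ± 1.99 and 5.10 ± 1.59 RPKM (SD, n = 3), and its day 7 libraries overlapped day 0, as those of Cyr61 did (log2 change 0.03, limma adjusted p = 0.926). From day 0 to day 7, 7 of the 16 rose (12.6% of all genes), led by Klf4 (1.86, SE 0.16, limma adjusted p = 7.4e-14) and Ier3 (1.41, SE 0.19, adjusted p = 2.29e-08), and Egr1 fell (-0.83, SE 0.18, adjusted p = 2.66e-04). Their part in the day 4 levels of Cyr61, Ctgf and Ankrd1 was not tested.

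Markers of other cells moved too. Ankrd1 is known from striated muscle, where Myod1, Myog, Ckm and Actn2 were at or near 0 in these libraries, while the summed skeletal muscle list was 1.81 to 3.24 RPKM at day 0, 5.65 to 9.37 at day 4 and 4.04 to 7.74 at day 7. Of its 7 genes, 2 were tested and both rose (12.6% of all genes did): Des, desmin (0.0728 to 0.919 RPKM), and Acta1 (2.17 to 4.56 RPKM). All 7 macrophage markers rose, beside 12.6% of all genes. Their summed levels were 42.9 to 73.5, 82.7 to 88.5 and 79.4 to 105 RPKM at days 0, 4 and 7. Most of that sum came from Lyz2 alone, with means of 47.7, 73.4 and 79.4 RPKM. The 5 endothelial markers summed to at most 0.459 RPKM. Of 5 smooth muscle and pericyte markers, 2 rose and 2 fell (all genes 12.6% and 18.6%), and the list summed to 98.0 to 101, 130.0 to 143 and 117 to 147 RPKM. Most of that sum came from Cspg4 and Pdgfrb, which moved in opposite directions. From day 0 to day 7 the Cspg4 mean rose from 20.7 to 92.1 RPKM and the Pdgfrb mean fell from 74.2 to 30.7.

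Of 4 chondrocyte markers tested, 3 fell and 1 rose (Acan), beside 18.6% and 12.6% of all genes. Their summed level was 158 to 455 RPKM at day 0, 50.8 to 164 at day 4 and 43.9 to 124 at day 7, and Col2a1 fell from 239 ± 157 to 53.5 ± 34.3 RPKM (SD, n = 3, log2 change -2.16, limma adjusted p = 2.51e-09). The part of these cells in the changes of the 7 genes was not tested.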

How the data were processed

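The samples were 9 RNA-seq libraries of mouse calvarial cells, 3 each at days 0, 4 and 7, grouped by the labels. Per the labels and the study's methods, total RNA was depleted of ribosomal RNA, reads were aligned with STAR 2.0.4b to GRCm38 (Ensembl annotation), and featureCounts counted uniquely aligned, unambiguous reads per gene. The authors deposited CPM and RPKM per gene, in 1 pair of tables for days 0 and 7 and another for day 4. All CPM values were whole multiples of 1 read (tolerance 0.01 read), which gave reads and library totals back. The deposited RPKM served as levels and the deposited CPM for the test.

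Day 7 was tested against day 0 on log2(CPM + 0.5) with limma 3.58.1 (R 4.3.3, empirical Bayes with an intensity trend), no covariate, over the 12712 genes whose CPM averaged 1 or more, with Benjamini-Hochberg adjustment and a threshold of 0.05. The study's own methods used TMM with voom quality weights on counts, which were run here on the recovered reads as an alternative, besides edgeR 4.0.16 and DESeq2 1.42.0. Others were the pseudocount, the filter, the RPKM table, median-of-ratios and TMM scaling, robust variances, a replicate block and leaving out each library. The residual degrees of freedom were 4 and the prior ones 42.9. On data simulated for this comparison (12712 genes), limma recovered 87 of 100 genes changed by a log2 fold of 1 and 98 of 100 changed by 2, with 14 false calls. The simulated libraries held 200 changed genes and no shift common to a whole library. These counts therefore do not describe the test where calls moved with the scaling or with a library left out.

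Single values of day 7 and day 0 were compared by exact permutation (scipy 1.17.1). Day 4, deposited in tables of its own, entered no test. Gene positions are from GENCODE M21 (GRCm38), which matched 40254 of 40548 identifiers. Named besides the 7 genes were Wisp3, Yap1, Wwtr1, Tead1 to Tead4, the 2 largest rises and 2 largest falls past the threshold in each list, all such genes among other YAP and TAZ targets, and the 3 genes most like each in Pearson correlation, of which 1 is not reported here. Named outside this rule, after their values were seen, were Fos, Lyz2, Stk3, Stk4, Lats1, Lats2, Taok1, Taok2, Taok3, Map4k4 and the genes at or near 0. The 7 genes, the lists and the alternatives were chosen with earlier results of these data known. Same-numbered libraries of days 0 and 7 did not deviate together (correlations of -0.017, -0.181 and -0.444), and libraries of a stage differed beyond sampling noise. Sequences are from RefSeq (GRCm38.p6).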

Additional observations from a re-analysis of the deposited data

How the results depend on the processing

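Nov, Wisp2 and Ankrd1 kept their direction and their call in all 18 alternatives, with log2 changes of -1.80 to -1.51, -2.11 to -1.69 and 1.92 to 2.44. Ctgf was not called by DESeq2 (-0.59) or with voom quality weights (-0.38), and lay at -0.88 to -0.47 with single libraries left out. Cyr61 turned to 0.08 under median-of-ratios scaling and DESeq2, 0.07 under TMM and edgeR and 0.13 under voom, and ran from -0.11 to 0.02 with libraries left out. Wisp1 became called at -0.28 under median-of-ratios scaling, TMM, edgeR and DESeq2, -0.31 under voom and -0.38 with robust variances, and ran from -0.50 to -0.28 with libraries left out. Amotl2 ran from -0.57 to -0.37 and lost its call in 4 of those 6 fits. The cause was not tested.

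Over all genes, 1602 were higher, but 2843 under median-of-ratios scaling, 2825 under TMM, 2818 by edgeR, 2581 by DESeq2 and 3148 under voom. The 2369 lower became 1527 without day 0 replicate 2, 1548 without day 7 replicate 2 and 4696 without day 0 replicate 3. Factors of the YAP, TAZ and TEAD list called higher went from 0 to 1 under median-of-ratios scaling, TMM, edgeR and DESeq2 and to 3 under voom, 0 to 1 with libraries left out, where lower ones ran from 3 to 5. Hippo regulators called higher went to 1 under the same 4 and 2 under voom, and lower ones ran from 5 to 11 with libraries left out. Other YAP and TAZ targets called lower ran from 4 to 8 with libraries left out. CCN receptors called higher were 1 with any reads or a CPM minimum of 5, 4 by edgeR and 1 to 2 with libraries left out, and lower ones 2 to 6. SRF and MRTF genes called higher ran from 2 to 4 with libraries left out and were 5 under median-of-ratios scaling, TMM, edgeR and DESeq2 and 6 under voom, and lower ones were 0 with any reads and 0 to 1 with libraries left out.

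For CCN shares at day 7 minus day 0, that of Ctgf ran from -2.97 to 0.363 percentage points, the last without day 0 replicate 1, and on CPM those of Cyr61, Wisp1 and Wisp2 were 11.5, 4.85 and -5.84. A replicate block, which the numbers do not justify, gave 1463 higher and 1950 lower genes, with Wisp1 at an adjusted p of 0.101 and Amotl2 at 0.0388, and changed no call among the 7 genes. At day 0, Ankrd1 rested on 24 to 67 reads, the lowest depth of any value given for the 7 genes.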
